A study of Mus musculus with 6 samples.

Results

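The miRNAs described here are the 5 main products of the miR-23/27/24 clusters, namely mmu-miR-23a-3p, mmu-miR-27a-3p, mmu-miR-23b-3p, mmu-miR-27b-3p and mmu-miR-24-3p. They were chosen by name, as the probes that the array files annotate to these 5 of the 1247 mouse miRNAs on the array, and all 5 were detected on all 6 arrays. The cells were mProx24, a proximal tubular line from the C57B6 mouse, and total RNA from each condition was read on 1 single-colour Agilent miRNA array. The 6 conditions were triple stimuli plus rapamycin, triple stimuli, hypoxia, palmitate, high glucose and an untreated control. Triple stimuli joined 1% oxygen, high glucose and palmitate, and the array with rapamycin added 0.4 µg/ml of this mTORC1 inhibitor for 12 h before palmitate. Hypoxia was 1% oxygen alone, given for 12 h per the labels, while the palmitate, high glucose and control cultures stayed at 20% oxygen. Palmitate was given for 9 h at 150 µM on 0.15% albumin, so palmitate and its carrier cannot be told apart. All cultures had the same serum-containing base medium; the labels state no glucose concentration.

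The clusters are a pair of short genomic blocks, each transcribed as 1 primary RNA from which 3 hairpins are cut. Cluster a makes miR-23a, miR-27a and miR-24, and cluster b makes miR-23b, miR-27b and the same mature miR-24. Mature miRNAs pair with messenger RNAs through their seed and lower the output of those messengers. In human cells miR-23a and miR-23b repress glutaminase under the control of MYC, in mouse and human fat cell precursors miR-27 represses the lipid regulator PPARG, and in human cells miR-24 represses cell cycle genes such as E2F2. In the mouse kidney miR-24 has been studied in ischaemic injury of tubules.

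In the GRCm38.p6 annotation, cluster a lay on chromosome 8 from 84208518 to 84208921, a span of 404 bases on the plus strand. Its hairpins Mir23a, Mir27a and Mir24-2 were 79 and 56 bases apart, and the nearest protein-coding gene, Zswim4, lay 2021 bases away. Cluster b lay on chromosome 13 from 63300484 to 63301275, a span of 792 bases on the plus strand. Its hairpins Mir23b, Mir27b and Mir24-1 were 154 and 423 bases apart, inside the gene Aopep, which encodes an aminopeptidase. The nearest other coding gene, Fancc of the Fanconi anaemia pathway, was 59 bases away.

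The mature sequences show which members could share targets, except for miR-23b-3p, whose mature sequence was missing and whose seed could not be compared. They are given 5′ to 3′ from RefSeq (GRCm38.p6), with the seed, bases 2 to 8, in capitals. The 4 members found in that table were the following, at chr8:84208563-84208583 for miR-23a-3p, chr8:84208727-84208747 for miR-27a-3p, chr13:63300760-63300780 for miR-27b-3p, and both chr8:84208875-84208896 and chr13:63301251-63301272 for miR-24-3p.
miR-23a-3p: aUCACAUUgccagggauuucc
miR-27a-3p: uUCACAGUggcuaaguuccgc
miR-27b-3p: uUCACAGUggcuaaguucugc
miR-24-3p: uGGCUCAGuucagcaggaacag
miR-27a-3p and miR-27b-3p shared the seed UCACAGU with each other and with no other of the 1679 mature names in the table. They differed at 1 base, C19U counted from the 5′ end, and were 95.2% identical over 21 bases. The miR-24-3p sequence was the same from both hairpins, so an array cannot say which cluster its signal came from. Its seed GGCUCAG was also carried by miR-5124b, miR-6369, miR-6410 and miR-6413, none of which was detected.

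Each member was measured by a pair of probes on 20 spots apiece, and the probes of a and b paralogs differed at a single base. The brighter probe of each member is shown 5′ to 3′, with the base that separates the paralogs in capitals.
miR-23a-3p probe: ggAaatccctggcaatgt
miR-23b-3p probe: ggTaatccctggcaatg
miR-27a-3p probe: gcGgaacttagccactg
miR-27b-3p probe: gcAgaacttagccactg
miR-24-3p probe: ctgttcctgctgaactga
Counted from the probe's 5′ end, the change between the a and b probes was A3T for miR-23 and G3A for miR-27. The 23b probe mapped to chr13:63300533-63300549 in Mir23b, and the miR-24-3p probe mapped to both chr13:63301255-63301272 in Mir24-1 and chr8:84208879-84208896 in Mir24-2. Binding of a paralog to the other's probe was not tested, and the levels of different probes are not comparable with each other.

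Of the 1247 miRNAs, 198 were detected on at least 1 array and 154 on all 6, with 162 to 194 per array, and the share of spots well above background ran from 11.4% to 13.3%. miR-210-3p, induced by low oxygen in most cells, had scaled signals of 206 in triple stimuli plus rapamycin, 219 in triple stimuli and 260 in hypoxia, against 23.2 in palmitate, 24.1 in high glucose and 24.7 in the control, with detection in high glucose alone among these 3. The palmitate value was the floor of that array, its lowest detected signal, and not a measured level. The order of the arrays follows the oxygen labels. Of 7 kidney epithelial miRNAs, miR-30a-5p, miR-30c-5p and miR-10a-5p were detected and miR-204-5p, miR-215-5p, miR-192-5p and miR-194-5p were not. None of 5 miR-200 family miRNAs of epithelia was detected, nor any of 2 endothelial, 5 blood or 5 fibroblast and smooth muscle miRNAs on the array, while 1 of 3 muscle miRNAs, miR-206-3p, was. The authors' deposited value table carries the high glucose and palmitate columns the other way round from the scanner files: for all 5 members its palmitate column matched the high glucose scanner file, and its high glucose column the palmitate file, within 0.1% after 1 common factor. The conditions here follow the scanner files, so every high glucose or palmitate value below rests on that choice. The 3 arrays at 1% oxygen also filled 1 row of the slide and the 3 at 20% oxygen the other, so oxygen and slide row cannot be told apart. A lower level in bulk RNA can mean fewer expressing cells or less RNA per cell, which cannot be told apart.

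The signals of all 5 members were nearly level across the conditions. Values below are the mean processed signal of the brighter probe's spots after scaling each array to its 75th percentile over probes detected on all arrays. With 1 array per condition, the only error is the standard error between spots of the probe on its array (spot SE), which leaves out the spread between cultures. All 20 spots of every brighter probe were well above background on every array.

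mmu-miR-23a-3p, of cluster a, had 1118 in triple stimuli plus rapamycin, 1182 in triple stimuli, 1188 in hypoxia, 1199 in palmitate, 1103 in high glucose and 1213 in the control. Its range was 0.14 on the log2 scale, or 1.10-fold. Control, palmitate, hypoxia and triple stimuli formed an upper group whose neighbours did not differ beyond 2 spot SE. A gap of 0.08 (log2, spot SE 0.01) separated triple stimuli from triple stimuli plus rapamycin, which did not differ from high glucose beyond that limit.

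mmu-miR-27a-3p, its neighbour in cluster a, had 268 in triple stimuli plus rapamycin, 297 in triple stimuli, 303 in hypoxia, 270 in palmitate, 290 in high glucose and 276 in the control. It was highest in hypoxia and its range was 0.18 (log2), or 1.13-fold. No neighbours in its order differed by more than 2 spot SE.

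mmu-miR-23b-3p, the cluster b paralog of miR-23a-3p, had 154 in triple stimuli plus rapamycin, 165 in triple stimuli, 173 in hypoxia, 180 in palmitate, 155 in high glucose and 182 in the control. The range was 0.25 (log2), or 1.19-fold. Its order was close to that of miR-23a-3p, with control and palmitate highest and high glucose and the rapamycin array lowest. Gaps over 2 spot SE lay between hypoxia and triple stimuli (0.07, spot SE 0.03) and between triple stimuli and high glucose (0.09, spot SE 0.03).

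mmu-miR-27b-3p, the dimmest of the brighter probes, had 81.7 in triple stimuli plus rapamycin, 85.0 in triple stimuli, 91.8 in hypoxia, 80.7 in palmitate, 83.0 in high glucose and 87.2 in the control. Like miR-27a-3p it was highest in hypoxia, with a range of 0.19 (log2), or 1.14-fold. None of its neighbouring arrays differed by more than 2 spot SE.

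mmu-miR-24-3p, the product common to both clusters, had 375 in triple stimuli plus rapamycin, 398 in triple stimuli, 410 in hypoxia, 412 in palmitate, 404 in high glucose and 446 in the control. The control stood above the next array, palmitate, by 0.11 (log2, spot SE 0.03), and the rapamycin array stood below triple stimuli by 0.08 (spot SE 0.02). The 4 arrays between did not differ from their neighbours beyond 2 spot SE. The whole range was 0.25 (log2), or 1.19-fold.

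**Figure D1:**
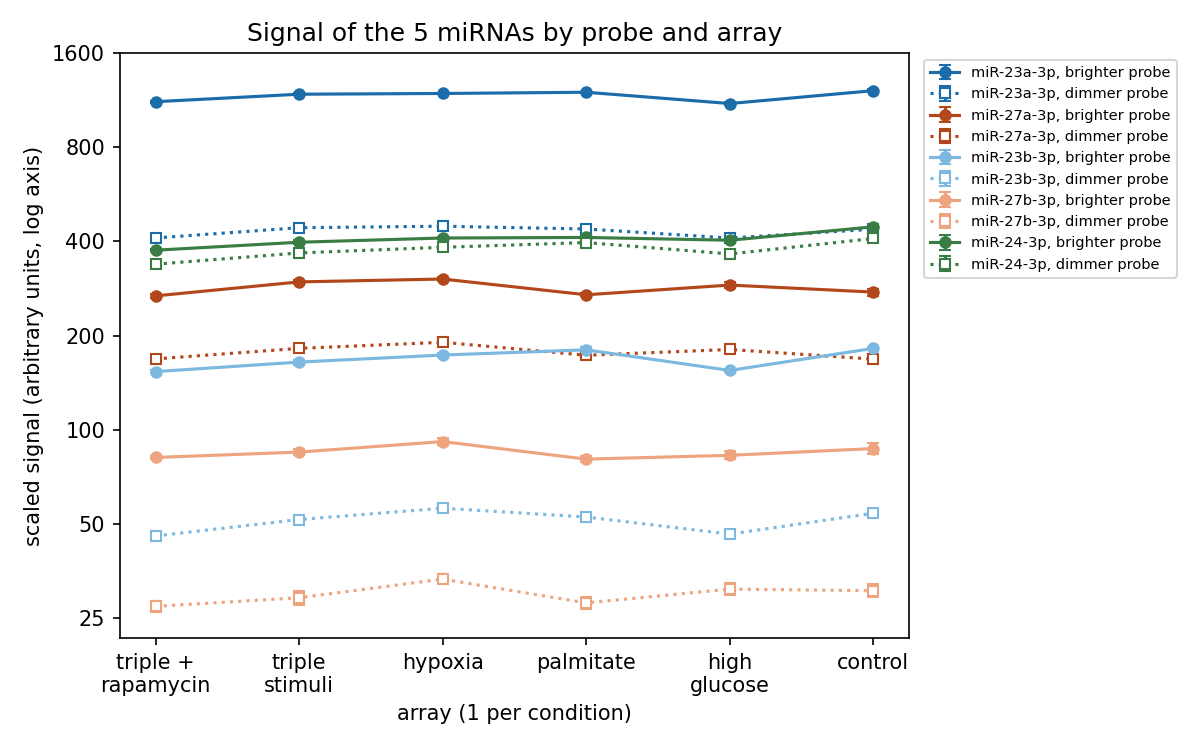
Scaled signal (log axis) of the brighter and dimmer probe of each of the 5 miRNAs on the 6 arrays; bars are the spot SE, and lines join the arrays of 1 probe without implying an order. Both probes of a miRNA run nearly flat, with the brighter probe of miR-23a-3p between 1103 and 1213, and heights of different probes are not comparable.

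The dimmer probes, which are 1 base shorter, also ran nearly level, but the order of the arrays was not always the same. Both miR-23 members were highest in hypoxia by the dimmer probe and in the control by the brighter. For miR-23b-3p the dimmer probe read 56.2 in hypoxia and 54.2 in the control. For miR-24-3p palmitate minus control was -0.04 (log2, spot SE 0.02) by the dimmer probe, within 2 spot SE. For miR-23a-3p the dimmer probe read 410 in triple stimuli plus rapamycin, 443 in triple stimuli, 448 in hypoxia, 438 in palmitate, 410 in high glucose and 438 in the control. For miR-27b-3p it read 27.3, 29.1, 33.4, 28.0, 31.0 and 30.7 in the same order of arrays, with 13 to 19 of 20 spots well above background. The dimmer probe of miR-27b-3p thus lay close to the detection limit of 17.2 to 23.2, and its values are the least certain of the 10 probes. Of the 35 differences between arrays described below, 28 had the same sign in both probes.

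Compared with the rest of the array, the members were on the steady side. The median range over the 6 arrays of the 154 miRNAs detected on all of them was 0.32 (log2) and the widest 2.53. A smaller range than that of the member was found for 11 miRNAs in the case of miR-23a-3p, 24 for miR-27a-3p, 26 for miR-27b-3p, 50 for miR-23b-3p and 51 for miR-24-3p. All 5 members therefore lay below the median range, and no test of this order was made. The ranking was made at this scaling alone and without matching miRNAs for brightness.

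**Figure D2:**
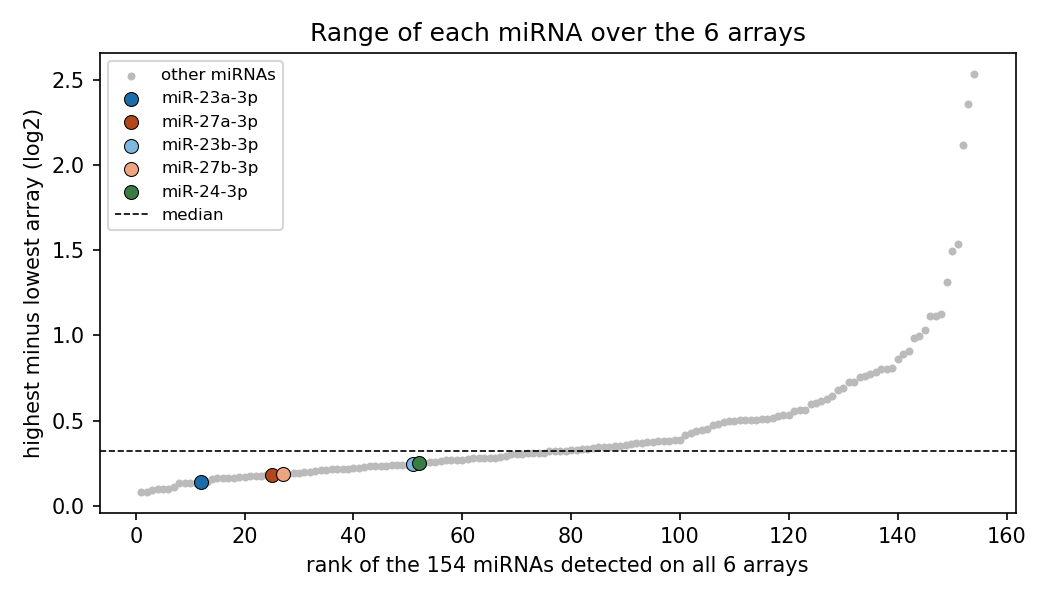
Range over the 6 arrays (highest minus lowest log2 scaled signal) of each of the 154 miRNAs detected on all arrays, ranked from narrow to wide. The 5 members, in colour, lie between 0.14 and 0.25, under the dashed median of 0.32.

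Pairs of arrays were compared to ask what each treatment did. A call needed detection on the 2 arrays compared, a fold of 1.5 or more and a difference over 2 spot SE, and with 1 array each there is no test. None of the 5 members was called in any of 7 comparisons. The largest difference was 1.19-fold, for miR-24-3p in triple stimuli plus rapamycin minus control. Of the 35 member differences, 20 were over 2 spot SE, and all stayed far below 1.5-fold. Spot SE leaves out the error of the scaling, and the 7 comparisons reuse the same arrays. The share of all tested miRNAs over 2 spot SE was not taken, so this count says nothing particular to the members.

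In high glucose minus control, 6.79% of 162 miRNAs were called, all 11 of them higher, and 0 of the 5 members. miR-23b-3p was at -0.23 (log2, spot SE 0.02), miR-24-3p at -0.14 (0.03) and miR-23a-3p at -0.14 (0.02), each lower in high glucose by over 2 spot SE. miR-27a-3p at 0.07 (0.05) and miR-27b-3p at -0.07 (0.07) were within 2 spot SE. The members' median was -0.14 and that of all tested miRNAs -0.05, with a robust SD among miRNAs of 0.17.

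In palmitate minus control, 2.58% of 155 miRNAs were called, again with 0 members. All 5 members lay between -0.11 for miR-24-3p (spot SE 0.03) and -0.02 for miR-23b-3p (0.03), and only miR-24-3p differed by over 2 spot SE. The median of the members and that of all tested miRNAs were both -0.03. Palmitate is a saturated fatty acid that loads cells with lipid, and 4 of the 5 members differed from the control by no more than 2 spot SE with it.

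In hypoxia minus control, 1.85% of 162 miRNAs were called and 0 members. miR-27a-3p was higher in hypoxia by 0.14 (log2, spot SE 0.04, 1.10-fold), above 90.7% of the tested miRNAs, and its dimmer probe gave 0.18 (0.04). miR-27b-3p was at 0.07 (0.07), miR-23a-3p at -0.03 (0.02), miR-23b-3p at -0.07 (0.02) and miR-24-3p at -0.12 (0.03). So by the brighter probes both miR-27 members lay above 0 and the other 3 below it at this scaling. By the dimmer probes miR-23a-3p was at 0.03 (0.02) and miR-23b-3p at 0.05 (0.05), both above 0. The median of all tested miRNAs was -0.11. Relative to that median, miR-27a-3p lay at 0.25, and at 0.23 under quantile scaling, the only 1 of the 6 scalings tried that can move this measure.

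In triple stimuli minus control, 5.59% of 161 miRNAs were called, all 9 higher, and 0 members. miR-27a-3p was at 0.11 (log2, spot SE 0.04), miR-23a-3p at -0.04 (0.02), miR-27b-3p at -0.04 (0.07), miR-23b-3p at -0.15 (0.03) and miR-24-3p at -0.16 (0.03). The median of the members was -0.04 against 0.01 over all tested miRNAs. Against hypoxia alone, triple stimuli had 8.77% of 171 miRNAs called, 15 higher and 0 lower, with 0 members. There all 5 members were slightly lower in triple stimuli, from -0.11 for miR-27b-3p (0.04) to -0.01 for miR-23a-3p (0.01), while the median of all tested miRNAs was 0.10. Relative to that median, miR-23b-3p lay between -0.22 and -0.18 and miR-27b-3p between -0.21 and -0.12 under the 6 scalings.

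Rapamycin blocks mTORC1, the kinase complex that couples nutrients to growth. In triple stimuli plus rapamycin minus triple stimuli, 3.8% of 184 miRNAs were called and 0 members. At this scaling all 5 members were lower with rapamycin, from -0.15 for miR-27a-3p (spot SE 0.03) to -0.06 for miR-27b-3p (0.03). For 4 of them the difference was over 2 spot SE. The members' median of -0.08 was close to that of all tested miRNAs, -0.07. Scaled to the 75th percentile over all probes, all 5 members were instead higher with rapamycin, from 0.08 for miR-27a-3p to 0.17 for miR-27b-3p. Against the control, the same array had 9.15% of 164 miRNAs called and 0 members, with miR-24-3p and miR-23b-3p both at -0.25 (spot SE 0.03 and 0.02), miR-23a-3p at -0.12 (0.02), miR-27b-3p at -0.09 (0.06) and miR-27a-3p at -0.04 (0.04). Comparisons with the same control array share its error, so members that lie lower in several of them are not independent observations.

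**Figure D3:**
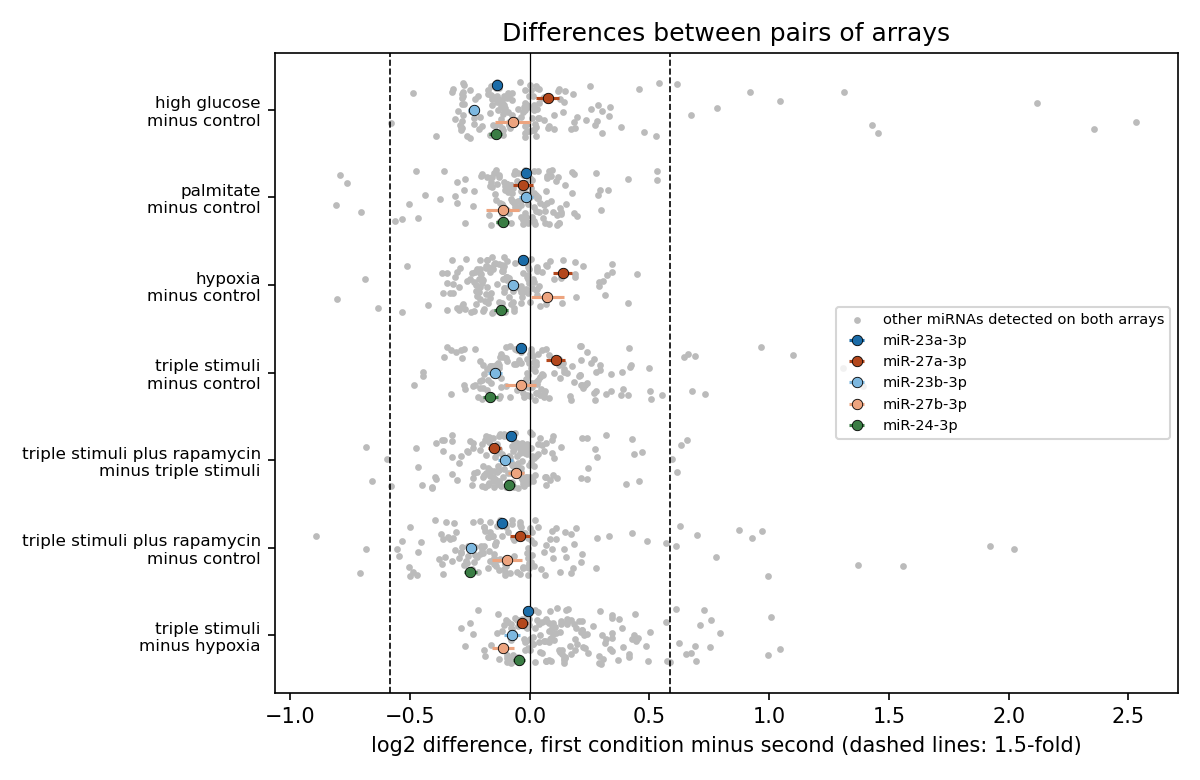
Log2 difference between pairs of arrays, first condition minus second, for the 5 members (colours, bars are spot SE) and for every other miRNA detected on both arrays (grey); dashed lines mark 1.5-fold. The members stay between -0.25 and 0.14 in all 7 comparisons, well inside both lines.

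Signs of such small differences turned on the scaling. All but quantile scaling shift every miRNA of an array alike, so a small difference changes sign against 0 by construction, and 3 of the 35 kept 1 sign under all 6. Against the median of all tested miRNAs such a shift cancels, so only quantile scaling can move a difference. On that measure 27 of the 35 stayed on 1 side under quantile scaling too. Before scaling, the 75th percentile of signal was 382 in triple stimuli plus rapamycin, 346 in triple stimuli, 335 in hypoxia, 318 in palmitate, 360 in high glucose and 295 in the control. The control array was thus the dimmest, and without scaling all 5 members were higher in triple stimuli plus rapamycin, triple stimuli, hypoxia and high glucose than in the control, and 3 of 5 were in palmitate. The highest array moved too, for all 5 members. It became high glucose for miR-27a-3p (309 unscaled) and miR-24-3p (429). It became triple stimuli plus rapamycin for miR-23a-3p (1262), miR-23b-3p (173) and miR-27b-3p (92.2). For the miR-23 paralogs the control went from highest to lowest (1059 and 159 unscaled). On the rapamycin array the scaling percentile fell on a member itself, since the dimmer probe of miR-24-3p read 382 there. Under any of the scalings, probes, signals and values tried, no member reached 1.5-fold, and the largest fold was 1.34, for miR-23b-3p in the palmitate column of the authors' deposited table, which holds high glucose scanner values.

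The 3 arrays that shared a factor were then set against the other 3, to ask whether a factor separated the members across treatments. These groups mix treatments, which enter the spread, and the p-values are from limma over the 154 miRNAs detected on all arrays with Benjamini-Hochberg adjustment. By oxygen, 0% of miRNAs passed at an adjusted p of 0.05, with 7 at an unadjusted p under 0.05, and the groups did not overlap for 11% of miRNAs. None of the members passed, with adjusted p between 0.884 and 0.989 (limma, unadjusted 0.247 to 0.884), and all 5 had overlapping groups. The difference, 1% minus 20% oxygen, was 0.05 for miR-27a-3p (95% interval -0.13 to 0.24), 0.04 for miR-27b-3p (-0.13 to 0.22), -0.01 for miR-23a-3p (-0.18 to 0.16), -0.07 for miR-23b-3p (-0.29 to 0.15) and -0.09 for miR-24-3p (-0.27 to 0.08). All 5 intervals lay inside 1.5-fold in both directions. In simulated data for this comparison, with 154 miRNAs and independent normal noise, the fit recovered 93.5% of planted 2-fold changes. Changes as small as those of the members were not planted, so recovery of such changes was not tested.

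By glucose, 9.74% of miRNAs passed and the groups did not overlap for 29.2%, or 45 of 154. None of the members passed, and 3 of the 5 had groups that did not overlap, all lower on the high glucose arrays. miR-23b-3p had 154, 165 and 155 on the arrays with high glucose and 173, 180 and 182 on those without, a difference of -0.18 (SE 0.06, 95% interval -0.33 to -0.03, adjusted p = 0.156, unadjusted p = 0.0264, limma). miR-23a-3p at -0.08 (adjusted p = 0.581, limma) and miR-24-3p at -0.11 (adjusted p = 0.468, limma) also did not overlap, while miR-27a-3p at 0.01 and miR-27b-3p at -0.06 did. By the brighter probes the miR-23 paralogs and miR-24-3p thus lay below on all 3 high glucose arrays, by amounts that did not pass the test. The gap between the groups was within 2 spot SE for miR-23a-3p (0.01, spot SE 0.01) and miR-24-3p (0.02, spot SE 0.02). By the dimmer probe the groups of miR-23a-3p overlapped, with 443 in triple stimuli and 438 in both palmitate and the control.

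The glucose difference moved with how the arrays were scaled, and the 3 high glucose arrays were also the brightest before scaling, at 346 to 382 against 295 to 335. The part of that brightness in the difference was not tested. Without scaling the difference of miR-23b-3p was 0.02 and under spike-in scaling -0.02. Under the median of detected probes 4 members passed, beside 39 of all 154 miRNAs, with miR-23b-3p at -0.35. Under quantile scaling 2 members passed, beside 23 of 154, with miR-23b-3p at -0.29. Relative to the median of all 154 miRNAs a common factor cancels, so only quantile scaling can move the value. For miR-23b-3p it was -0.20, and -0.17 under quantile scaling. The same measure was -0.10 for miR-23a-3p, -0.07 for miR-27b-3p, -0.12 for miR-24-3p and -0.01 for miR-27a-3p. Under quantile scaling these became -0.11, -0.06, -0.02 and 0.12.

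**Figure D4:**
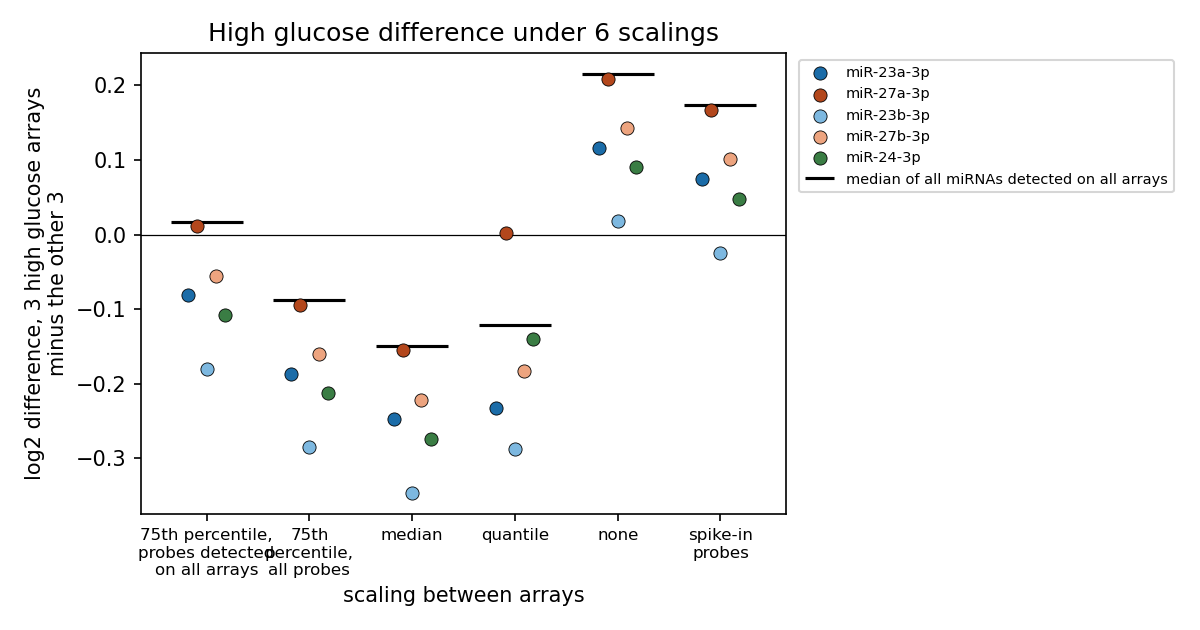
Log2 difference between the 3 arrays with high glucose and the other 3 under 6 scalings, for the 5 members (colours) and the median of all 154 miRNAs (bar). miR-23b-3p runs from -0.35 to 0.02. Its distance from the bar is -0.20, and -0.17 under quantile scaling, the only scaling that can move this distance. Under quantile scaling miR-27a-3p, at 0.00, stands apart from the bar at -0.12.

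By palmitate, 0% of miRNAs passed, with 5 at an unadjusted p under 0.05, and the groups did not overlap for 7.79%. All 5 members overlapped, with differences from -0.09 for miR-24-3p to 0.00 for miR-23a-3p and adjusted p between 0.909 and 0.981 (limma, unadjusted 0.276 to 0.981). The widest interval, that of miR-23b-3p, ran from -0.27 to 0.20.

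At the scaling used here the miR-23 paralogs of different clusters ran more alike than neighbours within a cluster, an order that did not hold without scaling in cluster a. Likeness was measured by Pearson's r of the log2 scaled signal over the 6 arrays, as a description without a test. It was 0.945 for miR-23a-3p with miR-23b-3p, and each was the second most similar of 153 miRNAs to the other. The value stayed between 0.602 and 0.996 under the alternatives and between 0.924 and 0.985 with any 1 array left out. For miR-27a-3p with miR-27b-3p r was 0.697, at rank 10 and 12, and the alternatives spanned -0.13 to 0.942, so that likeness was not stable. These pairs share arrays, scaling and nearly the same probe sequence.

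Within cluster a, miR-23a-3p and miR-27a-3p had r of 0.05, and miR-27a-3p ranked 93 of 153 among miRNAs like miR-23a-3p. Within cluster b, miR-23b-3p and miR-27b-3p had r of 0.36. Neither value is more than a weak relation over 6 arrays, and with no scaling, where the brightness of the array enters every miRNA alike, they became 0.866 and 0.613, beside 0.808 for the miR-23 paralogs and 0.942 for the miR-27 paralogs. The order of paralogs and neighbours in cluster a thus turned with the scaling. miR-24-3p, which both clusters make, had r of 0.696 with miR-23a-3p and 0.814 with miR-23b-3p, against 0.05 with miR-27a-3p and 0.43 with miR-27b-3p. Without scaling that order reversed, at 0.748 with miR-23a-3p and 0.331 with miR-23b-3p against 0.872 and 0.856 with the miR-27 members, and the alternatives for miR-23b-3p spanned 0.02 to 0.975.

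**Figure D5:**
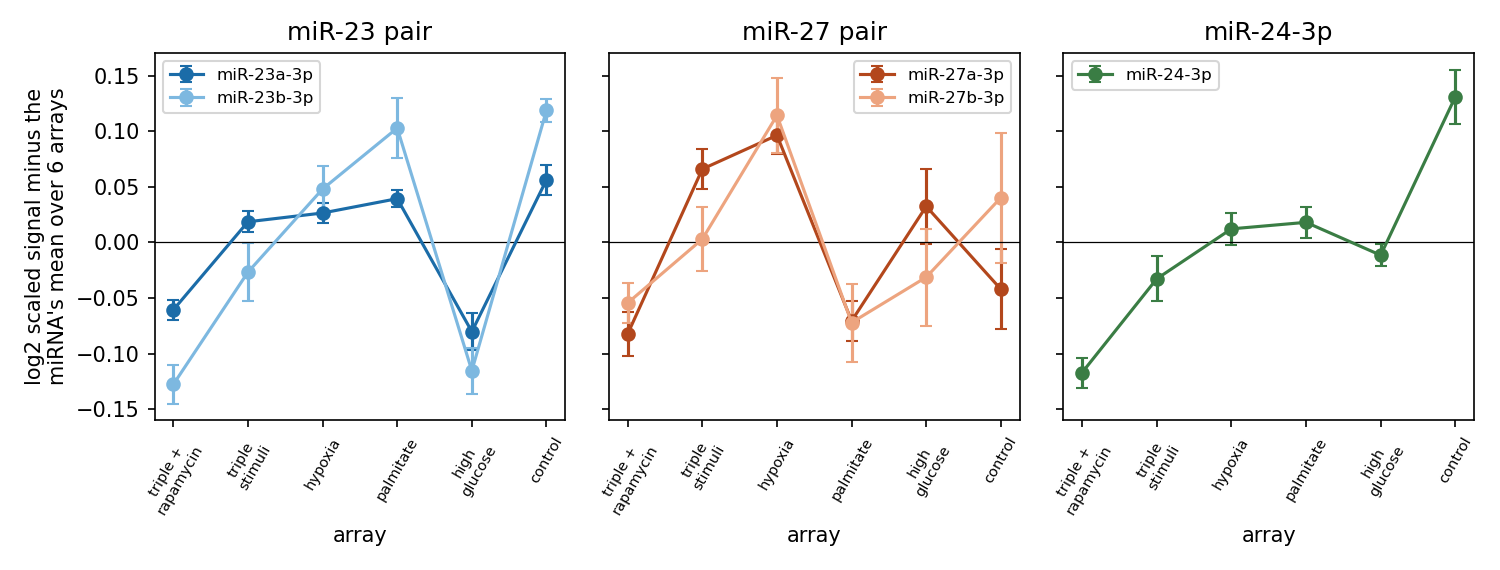
Log2 scaled signal of the brighter probe minus its mean over the 6 arrays, for the miR-23 pair, the miR-27 pair and miR-24-3p; bars are spot SE and lines carry no order. Both miR-23 members are low in triple stimuli plus rapamycin and in high glucose and high in palmitate and the control, while both miR-27 members are highest in hypoxia at this scaling.

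Ratios of 2 members on the same array do not depend on a common scaling factor, and so show unequal change more directly. The log2 ratio of miR-23a-3p to miR-27a-3p differed from its control value by -0.21 in high glucose (spot SE 0.05), -0.17 in hypoxia (0.04) and -0.15 in triple stimuli (0.04). Differences within 2 spot SE were those in triple stimuli plus rapamycin, -0.08 (0.04), and in palmitate, 0.01 (0.04). Over the 7 alternatives that can move a ratio and keep the scanner files' labels, the high glucose value ran from -0.24 to -0.15, and the hypoxia value was negative in 6, turning to 0.14 under quantile scaling. In cluster b the ratio of miR-23b-3p to miR-27b-3p differed from the control by -0.16 in high glucose (0.08) and -0.14 in hypoxia (0.07), negative in 7 and 6 of these 7 alternatives. It also differed by -0.15 in triple stimuli plus rapamycin (0.06), and within 2 spot SE by -0.11 in triple stimuli (0.07) and 0.10 in palmitate (0.07). Against triple stimuli the rapamycin array differed by 0.07 (0.03) in cluster a and -0.04 (0.05) in cluster b. The cluster b value in high glucose ran from -0.26 to -0.07 over them. All this rests on the scanner files' labels: with the high glucose and palmitate labels exchanged, the high glucose values were 0.01 in cluster a and 0.10 in cluster b, and with the deposited table they were -0.01 and 0.10. Each of these values comes from 1 array with no replicate.

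Between paralogs, the ratio of miR-23a-3p to miR-23b-3p differed from the control by 0.13 in triple stimuli plus rapamycin (spot SE 0.03), 0.11 in triple stimuli (0.03), 0.04 in hypoxia (0.03), 0.00 in palmitate (0.03) and 0.10 in high glucose (0.03). At this scaling the values over 2 spot SE were those of the 3 high glucose arrays. Under quantile scaling the order was another, with 0.30 in hypoxia and 0.16 in palmitate beside 0.15 in high glucose, and with exchanged labels high glucose gave 0.00 and palmitate 0.10. The ratio of miR-27a-3p to miR-27b-3p differed from the control by 0.05 to 0.15 on all 5 other arrays, none over 2 spot SE. Against triple stimuli, the rapamycin array differed in this miR-27 ratio by -0.09 (0.04), just over 2 spot SE. That value ran from -0.09 to -0.02 over the 7 alternatives. The miR-23 paralog ratio differed there by 0.02 (0.03), within 2 spot SE.

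The 3 miRNAs most like each member were named by the same measure. For miR-23a-3p they were miR-99b-3p (0.955), miR-23b-3p and miR-615-3p (0.933), and for miR-23b-3p they were miR-99b-3p (0.982), miR-23a-3p and miR-652-3p (0.931). For miR-24-3p they were miR-30e-5p (0.997), a kidney-abundant miRNA, miR-103-3p (0.959) and miR-181b-5p (0.946). For miR-27a-3p they were miR-96-5p (0.980), miR-5100 (0.836) and miR-5117-3p (0.812), and for miR-27b-3p miR-16-5p (0.848), miR-5097 (0.832) and miR-365-3p (0.819). With 6 arrays and 153 miRNAs ranked, these values describe likeness on these arrays alone.

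The opposite strands of the same hairpins were not detected. The array carries 9 further products, miR-23a-5p, miR-23b-5p, miR-27a-5p, miR-27b-5p, miR-24-1-5p, miR-24-2-5p and, from the hairpins on the opposite strand at Mir24, miR-3074-5p, miR-3074-1-3p and miR-3074-2-3p. Their 24 probes had scaled signals between -5.31 and 14.3, and 0.648% of their spots were well above background, so 0 of 9 passed the spot rule. Feature Extraction itself called 1 of them on 1 array, miR-23a-5p in high glucose, with a summed signal of 1.94 and a software error of 1.36. On the same scale the software's summed signal of miR-23a-3p was 488 in triple stimuli plus rapamycin, 470 in triple stimuli, 458 in hypoxia, 435 in palmitate, 455 in high glucose and 407 in the control. The 5 members were thus the only products of these hairpins that met the spot rule.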

How the data were processed

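Total RNA (100 ng a sample) was read on 6 arrays, 1 per condition. Per the file headers, Agilent Feature Extraction 10.7.3.1 removed background and marked outlier spots. Spot values are the intensity that the authors deposited, linear and without normalisation across arrays. The deposited value table holds a linear signal per miRNA of unstated scaling, not centred, with column medians from 0.00341 to 0.00475; it served as an alternative. The array files list several positions for a probe without naming builds, and those printed lie in the RefSeq hairpins of GRCm38.p6.

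A probe's value was the mean of its spots without outlier flag. Detection of a probe needed a share of 0.5 or more of its spots well above background. Arrays were scaled to the 75th percentile over 281 probes detected on all arrays, floored at the lowest detected signal and moved to log2; the brightest probe stood for a miRNA. No spot was saturated, and the number of arrays limits the precision. Groups of 3 arrays were compared with limma 3.58.1 (lmFit, eBayes, two-sided, Benjamini-Hochberg, R 4.3.3). Only the comparison by oxygen was tried on simulated data, with 1.12% false calls. The labels name no separate cultures. Older array names of miR-126 and miR-142 were taken as their current "a" names. The members, lists and comparisons were chosen with earlier results of these data known. The text names the 5 members, the other products of their hairpins, the 3 miRNAs most like each and miR-210-3p, beside marker miRNAs and miRNAs that share a seed. Alternatives covered scaling, background, probe, spots, values, labels, filter, model, threshold and left-out arrays.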

Additional observations from a re-analysis of the deposited data

How the results depend on the processing

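No paired analysis was possible because each condition has 1 array and the labels carry no replicate numbers. The count of members called stayed at 0 in the 7 comparisons of 2 arrays under all alternatives, and in the comparison by oxygen. By glucose, members passing numbered 4 under the median of detected probes (miR-23a-3p, miR-23b-3p, miR-27b-3p and miR-24-3p; 39 of all 154 miRNAs) and 2 under quantile scaling (miR-23b-3p and miR-27b-3p; 23 of 154). By palmitate, 2 passed with the deposited value table (miR-23b-3p and miR-24-3p; 35 of 195), whose palmitate column holds high glucose scanner values. Leaving out each array in turn let no member pass. Scaling moved the median of all miRNAs by over 0.1 (log2), by glucose from -0.15 under the median to 0.22 with none. Counts over all miRNAs ran from 4 to 20 against 11 in high glucose minus control, 0 to 29 against 4 in palmitate, 0 to 15 against 3 in hypoxia, 3 to 25 against 9 in triple stimuli and 4 to 32 against 15 in triple stimuli plus rapamycin. They ran from 0 to 13 against 7 for rapamycin over triple stimuli, 2 to 17 against 15 for triple stimuli over hypoxia, 0 to 48 against 15 by glucose, 0 to 35 against 0 by palmitate and 0 to 1 against 0 by oxygen. Signal over background limits the dimmer miR-27b-3p probe most.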
